A study of Mus musculus with 12 samples.

Results

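The killer cell lectin-like receptor (Klr) genes were taken as every gene in the files whose symbol reads Klr, a letter from a to k and a number. This gave 30 of 40840 genes. Of these, 27 had a value above the file minimum of 1.01 TPM in at least 3 of 11 libraries, WT-NCD replicate 3 being left out of that count. TPM is a measure of transcript abundance that corrects for gene length and brings each library to a common total. Klra5, Klrb1-ps1 and Klrh1 were not above the minimum in 3 of the 11 libraries. The data are RNA-seq of liver immune cells from 12 male mice, 1 library per mouse, in 4 groups of 3. WT mice were C57BL/6 by the labels and C57BL/6J by the methods, and Casp11-/- mice, of the strain B6.129S4(D2)-Casp4tm1Yuan/J, carried a germline disruption of Casp4, the gene of caspase-11. Mice of either genotype were 8 to 10 weeks old at the start and then ate normal chow diet (NCD) or a high-fat diet (HFD, 20% fat by weight) for 12 weeks. The groups are called WT-NCD and WT-HFD, and likewise Casp11-/- NCD and Casp11-/- HFD. The comparison of diets asked how HFD moved these transcripts in the liver, and the comparison of genotypes whether it did so without caspase-11. Because RNA of a mixed fraction was sequenced, fewer cells of a type and less RNA per cell cannot be told apart.

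Klr genes encode C-type lectin-like receptors that sit mainly on natural killer (NK) cells and on some T cells and innate lymphoid cells, all of which are abundant in mouse liver. Inhibitory members carry a motif in their cytoplasmic tail that recruits phosphatases such as SHP-1 (Ptpn6), while activating members lack it and signal through adaptors such as DAP12 (Tyrobp), DAP10 (Hcst) or the Fc receptor gamma chain (Fcer1g). Ly49 receptors (Klra genes) bind classical MHC class I, CD94/NKG2 heterodimers (Klrd1 with Klrc genes) bind the non-classical molecule Qa-1, NKG2D (Klrk1) binds stress-induced ligands, and NKR-P1 receptors (Klrb1 genes) bind C-type lectins of the Clec2 group encoded beside them.

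WT-NCD replicate 3 stood apart from every other library. It had 39677 genes above the minimum, against 12940 to 18775 in the other 11, and its highest gene reached 1635 TPM, against 153305 TPM or more. Its correlation with the others, on log2(TPM + 1), ran from -0.27 to -0.07, against 0.85 or higher among the rest. It was left out of the fit, and results with all 12 libraries stand beside the results they change. The libraries also differed in composition with diet. U3 small nucleolar RNA made up 1.24% to 4.84% of TPM in the 5 remaining NCD libraries and 25.8% to 58.5% in the 6 HFD libraries, and protein-coding genes made up 21.3% to 41.5% and 14.5% to 24.2%. Casp4, the targeted gene, read 5.60 to 15.6 TPM in WT libraries and 2.56 to 15.2 TPM in libraries labelled Casp11-/-, with 2 of those 6 inside the WT range. A transcript of a disrupted gene can still be read outside the altered part, so these values do not test the genotype. The heading inside the file of Casp11-/- HFD replicate 2 was abbreviated unlike the rest.

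All 30 members lie on chromosome 6 (RefSeq, GRCm38.p6). Klrg2 stands alone at chr6:38616329-38638815, Klrg1 at chr6:122270596-122282833, and the other 28 run from Klrb1a at chr6:128609227-128622934 to Klra2 at chr6:131198970-131247716, in the natural killer gene complex. RefSeq promoter windows of 300 bases, which reach a short way past the gene start, were found for 22 of the 27 members. Windows of the pairs Klrb1a and Klrb1c, and Klra4 and Klra8, are shown because they are similar copies whose levels are set side by side in the diet comparison. Klrb1a (chr6:128622885-128623184) and Klrb1c (chr6:128788592-128788891), both on the minus strand, encode activating NKR-P1 receptors. Aligned end to end, their windows share 69.4% of 340 columns, gaps included. The windows are offset, so unmatched ends lower this share and it cannot be ranked against that of the next pair. The ACTTCC of Klrb1a lies beyond the stretch that matches the end of the Klrb1c window, so the windows do not compare that site. Capitals mark GGAAGT or its reverse complement ACTTCC, a core of ETS factor sites:
Klrb1a: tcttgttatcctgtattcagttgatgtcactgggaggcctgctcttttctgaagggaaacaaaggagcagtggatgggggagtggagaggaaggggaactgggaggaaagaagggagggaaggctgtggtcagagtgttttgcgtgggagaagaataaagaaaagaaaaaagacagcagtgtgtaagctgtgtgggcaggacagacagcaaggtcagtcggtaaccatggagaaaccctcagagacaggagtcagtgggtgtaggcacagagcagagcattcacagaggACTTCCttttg
Klrb1c: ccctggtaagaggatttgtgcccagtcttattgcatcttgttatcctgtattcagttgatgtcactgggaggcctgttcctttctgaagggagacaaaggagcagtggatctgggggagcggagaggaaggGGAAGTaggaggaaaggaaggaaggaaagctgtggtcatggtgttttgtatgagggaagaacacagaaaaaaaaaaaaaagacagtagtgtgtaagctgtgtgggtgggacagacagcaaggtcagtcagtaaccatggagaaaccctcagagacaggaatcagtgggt
Klra4 (chr6:130067222-130067521) and Klra8 (chr6:130129849-130130148), also on the minus strand, encode the activating receptors Ly49D and Ly49H and share 86.0% of 301 aligned columns. Capitals mark TATAAA or its reverse complement TTTATA, which the Klra4 window lacks:
Klra4: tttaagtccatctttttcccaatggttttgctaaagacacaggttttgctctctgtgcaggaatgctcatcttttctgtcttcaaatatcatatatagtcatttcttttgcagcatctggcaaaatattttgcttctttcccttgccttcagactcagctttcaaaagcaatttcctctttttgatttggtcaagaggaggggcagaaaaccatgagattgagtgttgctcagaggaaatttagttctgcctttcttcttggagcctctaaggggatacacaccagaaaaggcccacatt
Klra8: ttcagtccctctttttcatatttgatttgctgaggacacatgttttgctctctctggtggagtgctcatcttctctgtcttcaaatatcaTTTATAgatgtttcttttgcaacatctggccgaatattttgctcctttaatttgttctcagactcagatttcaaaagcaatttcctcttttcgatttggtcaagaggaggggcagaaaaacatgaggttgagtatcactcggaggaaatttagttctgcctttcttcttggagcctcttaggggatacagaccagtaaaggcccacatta
Searched on both strands, GGAAGT was in 4 of 22 member windows, those of Klrb1a, Klrb1b, Klrb1c and Klrb1f, and in 24.1% of 27025 RefSeq windows. TATAAA was in 8 of 22, namely Klrc1, Klrc2, Klra3, Klra6, Klra7, Klra8, Klra9 and Klra10, and in 14.2% of all windows. TGTGGTT, a RUNX core, was in 3 (Klra1, Klre1, Klrk1) and in 5.37% of all. TCACACC, a T-box core, was in Klra1 alone and in 3.96% of all.

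By level, the subunit CD94 (Klrd1) led the family with a mean of 33.4 TPM over the 11 libraries. NK1.1 (Klrb1c) followed at 22.4, NKG2A (Klrc1) at 19.1, NKG2D (Klrk1) at 18.0, Ly49B (Klra2) at 14.6, NKR-P1B (Klrb1b) at 11.04 and Ly49H (Klra8) at 9.25 TPM. Neighbours in this order lay closer than the spread over libraries. At the low end, Klra7, Klra1, Klra6, Klrg2, Klra10 and the pseudogene Klra14-ps each averaged below 2 TPM, near the minimum, and Klrb1 was above the minimum in 4 of the 11 libraries.

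**Figure D1:**
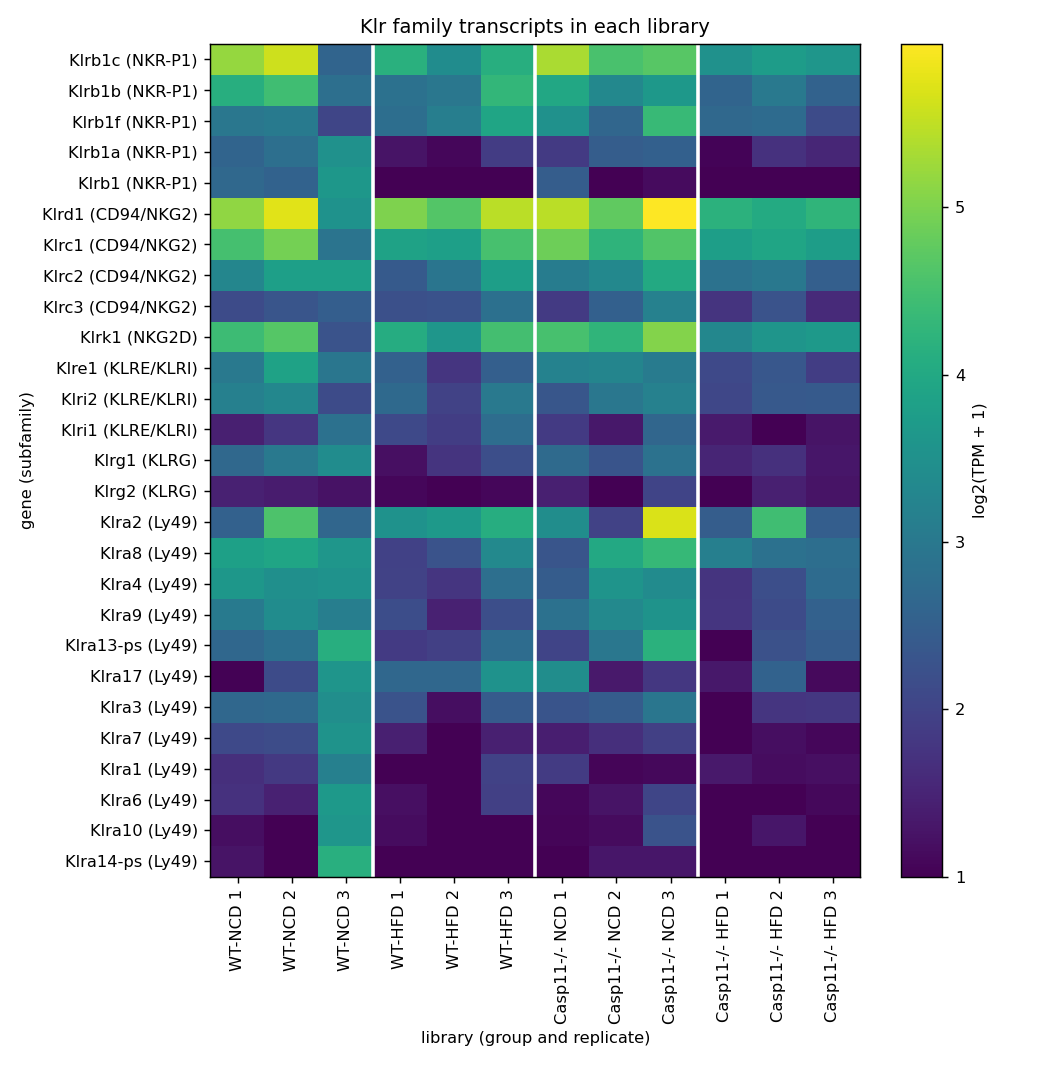
Level of the 27 members in each of the 12 libraries, as log2(TPM + 1), with subfamilies in rows and white lines between the groups. The third WT-NCD column differs in pattern from all others, and Klrd1 is among the 2 brightest rows in each of the remaining columns.

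Averaged over the genotypes, 8 of 27 members were lower on HFD than on NCD at an adjusted p under 0.05 (limma). None was higher. They were the NKR-P1 genes Klrb1, Klrb1a and Klrb1c, the subunit Klre1, the inhibitory receptor Klrg1, and the Ly49 genes Klra4, Klra7 and Klra9. Over all 17950 genes tested, 18.3% were called and 17.3% were called lower. Of the 27 members, 26 had a log2 fold change under 0, against 68.3% of all genes. Their median was -0.71, against -0.39 for all genes. Klrb1 and Klra14-ps passed the filter on low values through NCD libraries alone, so Klrb1 had to differ and its calls are only counted. When a gene had to be above the minimum in at least 6 libraries, which the 5 NCD libraries cannot fill alone, both dropped out. Of the 25 members left, 9 were called lower, the other 7 named above with Klra3 and Klra8, against 26.9% of 14572 genes. As each library was left out, the count ran from 1, Klrb1, without WT-NCD replicate 2 (2.96% of genes called lower) to 14 of 26 without Casp11-/- NCD replicate 2 (45.8% of genes). At an unadjusted p under 0.05 there were 15 members, and 36.8% of all genes. With all 12 libraries, 0 members were called (10 at an unadjusted p under 0.05), and 0.513% of 19498 genes were called lower.

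**Figure D2:**
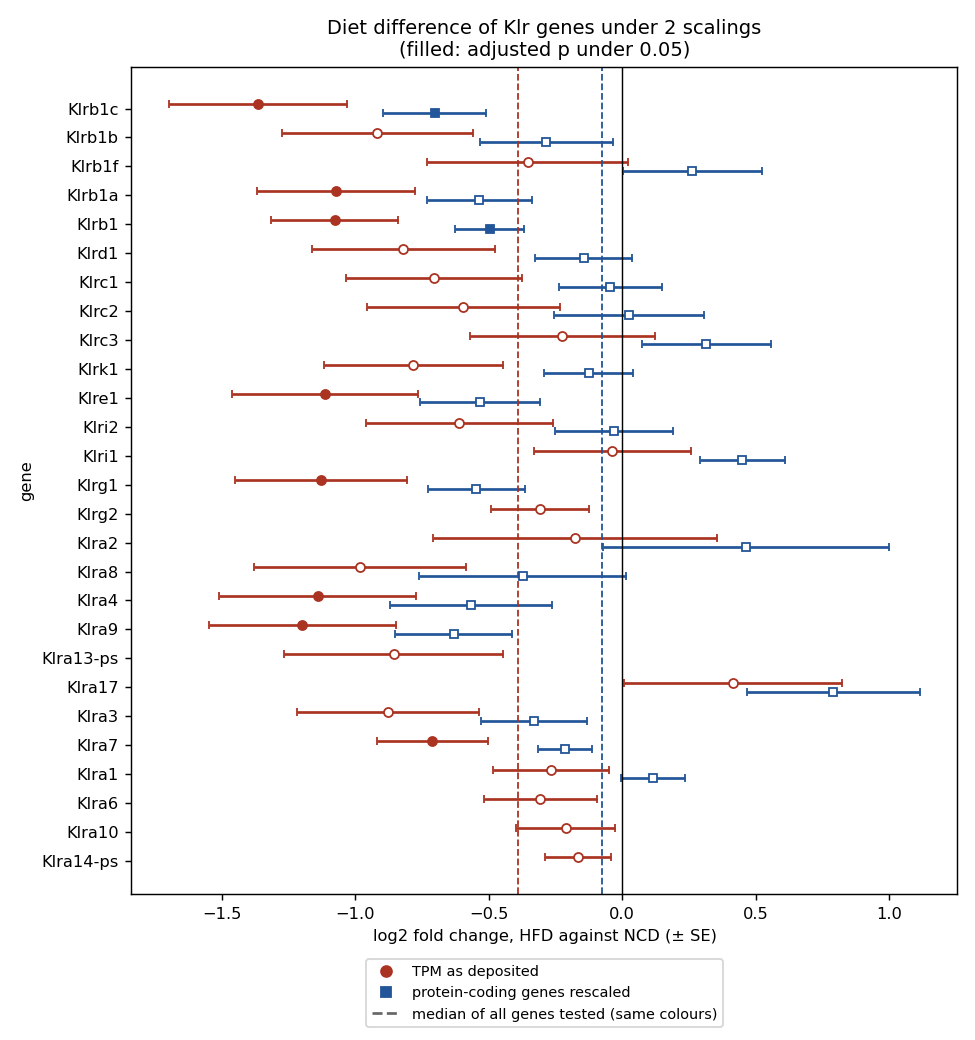
Diet difference (HFD against NCD, averaged over the genotypes) of each member as a log2 fold change with its SE, on TPM as deposited (circles) and after protein-coding genes were rescaled (squares), with filled symbols at an adjusted p under 0.05 and dashed lines at the median of all genes. On TPM all members but Klra17 lie under 0, and after rescaling 15 of 22 do, with the sizes of Klrb1 and Klra14-ps set by the minimum on HFD.

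Klrb1c encodes NK1.1, the activating receptor by which NK cells of C57BL/6 mice are commonly sorted. It read 35.3 and 47.2 TPM in WT-NCD replicates 1 and 2, and 16.8, 9.67 and 16.4 in the 3 WT-HFD libraries. In Casp11-/- mice it read 39.8, 22.5 and 24.6 on NCD and 10.4, 12.4 and 11.2 on HFD. Every HFD library lay below every one of the 5 NCD libraries. The log2 difference was -1.36 ± 0.33 (SE), adjusted p = 0.012, and over the alternatives the adjusted p ran from 0.0013 to 0.36.

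Klrb1a, an activating relative, read 5.07 and 6.01 TPM on WT-NCD, 1.40, 1.13 and 2.67 on WT-HFD, 2.59, 4.56 and 4.78 on Casp11-/- NCD and 1.08, 2.26 and 1.89 on Casp11-/- HFD. Only WT-HFD replicate 3 exceeded an NCD library, Casp11-/- NCD replicate 1. The difference was -1.07 ± 0.30, adjusted p = 0.021. Klrb1, which encodes NKR-P1G, described as activating, stood at the minimum in all 6 HFD libraries, at 5.42 and 4.92 TPM on WT-NCD, and at 4.54, the minimum and 1.22 TPM on Casp11-/- NCD. Because it passed through NCD libraries alone and its size rests on the minimum, its values are given without a fold or a p.

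Klrb1b, the inhibitory NKR-P1B that binds the Clec2d product, read 16.4 and 20.8 TPM on WT-NCD, 6.24, 6.88 and 18.5 on WT-HFD, 14.8, 9.01 and 11.7 on Casp11-/- NCD and 5.07, 7.11 and 4.94 on Casp11-/- HFD. It averaged 14.5 ± 4.51 TPM (SD, n = 5) on NCD and 8.13 ± 5.17 TPM (n = 6) on HFD, with 5 of 6 HFD libraries below the NCD range and WT-HFD replicate 3 inside it, adjusted p = 0.069. Klrb1f, an activating receptor, read 6.88 and 7.22 TPM on WT-NCD, 5.92, 7.77 and 14.1 on WT-HFD, 10.4, 5.22 and 19.4 on Casp11-/- NCD and 5.42, 5.71 and 3.39 on Casp11-/- HFD. Its diets overlapped (9.82 ± 5.66 and 7.05 ± 3.73 TPM, adjusted p = 0.47).

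None of the 4 CD94/NKG2 genes passed the test. Klrd1 encodes CD94, the partner that NKG2A, NKG2C and NKG2E need for the cell surface. It read 34.4 and 53.0 TPM on WT-NCD, 31.4, 24.1 and 43.0 on WT-HFD, 42.9, 26.1 and 62.0 on Casp11-/- NCD and 17.4, 15.4 and 18.1 on Casp11-/- HFD. WT groups overlapped, and the Casp11-/- groups did not. The difference was -0.82 ± 0.34, adjusted p = 0.088. Klrc1, the inhibitory NKG2A, read 21.7 and 29.7 TPM on WT-NCD, 13.5, 13.1 and 22.1 on WT-HFD, 28.3, 17.9 and 23.7 on Casp11-/- NCD and 12.9, 14.1 and 12.6 on Casp11-/- HFD. It averaged 24.3 ± 4.85 on NCD and 14.7 ± 3.65 TPM on HFD, with 5 of 6 HFD libraries below the NCD range, adjusted p = 0.12. Klrc2, the activating NKG2C, read 8.74 and 12.9 TPM on WT-NCD, 4.28, 6.61 and 12.8 on WT-HFD, 7.55, 8.96 and 15.3 on Casp11-/- NCD and 6.34, 6.99 and 4.65 on Casp11-/- HFD, with 5 of 6 HFD libraries below the NCD range. Klrc2 and Klrc3, which encodes NKG2E, gave -0.60 and -0.23, adjusted p = 0.22 and 0.59.

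Klrk1, the activating NKG2D, read 20.2 and 24.5 TPM on WT-NCD, 16.03, 11.3 and 21.4 on WT-HFD, 22.2, 18.1 and 32.3 on Casp11-/- NCD and 8.83, 11.1 and 11.96 on Casp11-/- HFD. It averaged 23.5 ± 5.48 and 13.4 ± 4.54 TPM, with 5 of 6 HFD libraries below the NCD range, log2 difference -0.78 ± 0.33, adjusted p = 0.094.

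Klre1, which pairs with KLRI1 or KLRI2, read 7.08 and 13.5 TPM on WT-NCD, 4.83, 2.41 and 4.68 on WT-HFD, 8.17, 8.66 and 7.38 on Casp11-/- NCD and 3.27, 4.10 and 2.74 on Casp11-/- HFD, with the diets apart in all libraries. Its difference was -1.11 ± 0.35, adjusted p = 0.033. The partner Klri2 read 7.99 and 8.89 TPM on WT-NCD, 5.52, 2.92 and 7.08 on WT-HFD, 4.04, 6.85 and 8.12 on Casp11-/- NCD and 3.17, 4.23 and 4.30 on Casp11-/- HFD, averaging 7.18 ± 1.90 and 4.54 ± 1.55 TPM (adjusted p = 0.20). Klri1 averaged 2.70 ± 1.52 and 2.65 ± 1.81 TPM (adjusted p = 0.92). Neither passed the test. Klrg1, an inhibitory receptor for cadherins on mature NK and effector T cells, read 5.43 and 7.08 on WT-NCD, 1.31, 2.36 and 3.58 on WT-HFD, 5.57, 3.89 and 6.36 on Casp11-/- NCD and 1.87, 2.23 and 1.45 TPM on Casp11-/- HFD. The diets did not overlap. The difference was -1.13 ± 0.32, adjusted p = 0.024. Klrg2 averaged 1.82 and 1.22 TPM, adjusted p = 0.21.

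Of the Ly49 genes, 3 of 12 were called, against 17.3% of all genes called lower. Klra4, the activating Ly49D, read 11.5 and 10.2 TPM on WT-NCD, 2.97, 2.38 and 6.08 on WT-HFD, 4.44, 10.9 and 9.59 on Casp11-/- NCD and 2.35, 3.60 and 5.67 on Casp11-/- HFD. Casp11-/- NCD replicate 1 fell inside the HFD range. The difference was -1.14 ± 0.37, adjusted p = 0.037. Klra9, the inhibitory Ly49I, was the only Ly49 gene with no overlap of the diets and read 7.30 and 9.70 TPM on WT-NCD, 3.51, 1.75 and 3.60 on WT-HFD, 6.24, 9.15 and 10.8 on Casp11-/- NCD and 2.41, 3.41 and 4.80 on Casp11-/- HFD. The difference was -1.20 ± 0.35, adjusted p = 0.026. Klra7, the inhibitory Ly49G, read 3.30 and 3.45 TPM on WT-NCD, 1.71, 1.01 and 1.71 on WT-HFD, 1.69, 2.17 and 2.83 on Casp11-/- NCD and 1.01, 1.26 and 1.13 on Casp11-/- HFD. Its HFD values lay at or near the minimum and the diets met at 1.69 and 1.71 TPM, difference -0.71 ± 0.21, adjusted p = 0.027.

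Klra8, Ly49H, the activating receptor known from resistance to mouse cytomegalovirus, read 13.1 and 14.3 TPM on WT-NCD, 2.90, 3.87 and 9.15 on WT-HFD, 3.94, 15.1 and 19.3 on Casp11-/- NCD and 7.85, 6.22 and 5.98 on Casp11-/- HFD. It averaged 13.2 ± 5.64 on NCD and 5.99 ± 2.35 TPM on HFD, adjusted p = 0.079, and Klra3, Ly49C, averaged 5.19 ± 1.08 and 2.57 ± 1.34 TPM, adjusted p = 0.068. The pseudogene Klra13-ps gave -0.86, adjusted p = 0.13. Klra2, Ly49B, known also from macrophages and other myeloid cells, read 4.82 and 22.97 TPM on WT-NCD, 10.7, 11.8 and 16.2 on WT-HFD, 9.82, 2.97 and 50.8 on Casp11-/- NCD and 4.57, 20.8 and 4.63 on Casp11-/- HFD. Its libraries ran from 2.97 to 50.8 TPM on NCD and from 4.57 to 20.8 TPM, inside that range, on HFD (adjusted p = 0.79). Klra17, Ly49Q, known from plasmacytoid dendritic cells and neutrophils, was the only member with a log2 difference above 0, at 3.67 ± 3.59 on NCD and 4.79 ± 3.41 TPM on HFD, not called (0.42 ± 0.41, adjusted p = 0.43). Klra1, Klra6, Klra10 and Klra14-ps lay near the minimum in both diets and were not called.

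**Figure D3:**
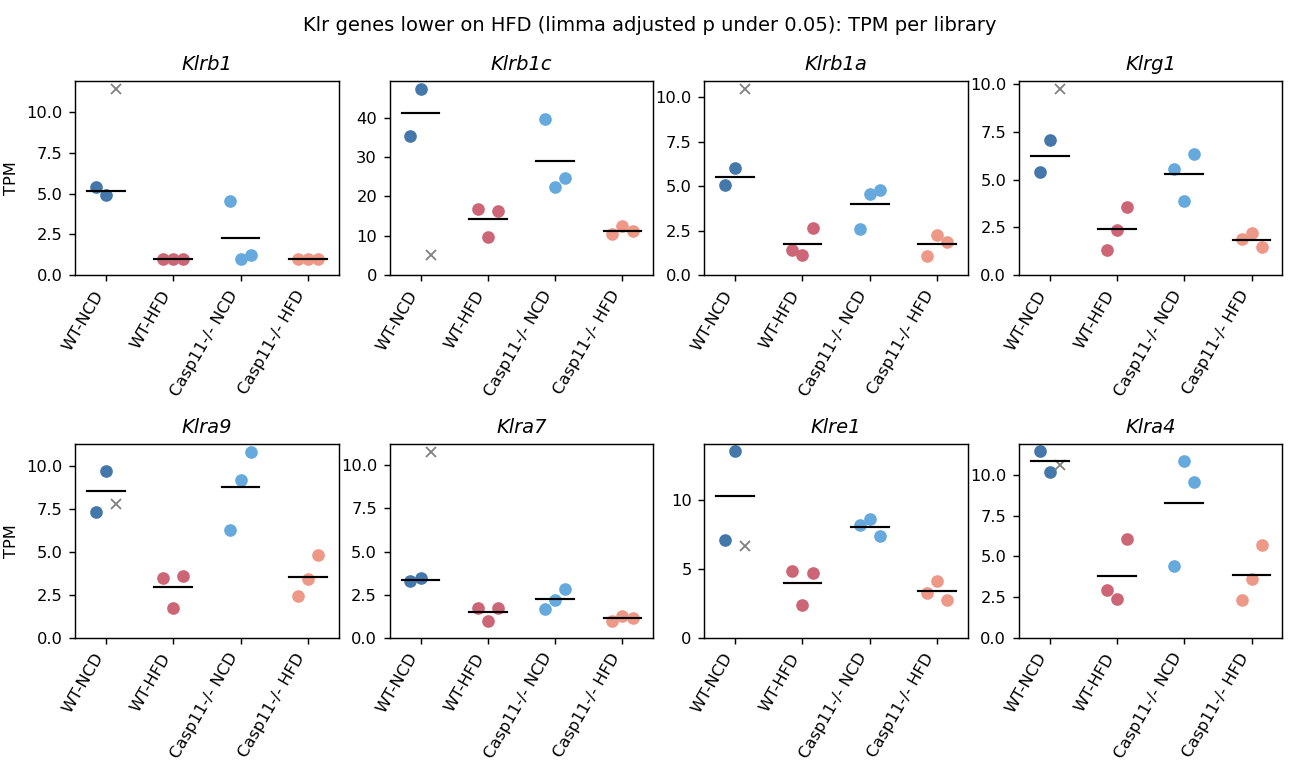
TPM per library of the 8 members called lower on HFD, with bars for the mean of a group and a grey cross for WT-NCD replicate 3, which entered only the fit of all 12 libraries. HFD points sit low in every panel, and Klrb1c is the highest of the 8 by level.

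In WT-NCD replicate 3 the same 8 genes read 11.4 (Klrb1), 10.4 (Klrb1a), 5.06 (Klrb1c), 6.70 (Klre1), 9.75 (Klrg1), 10.6 (Klra4), 10.7 (Klra7) and 7.76 TPM (Klra9). Klrb1c there was below all HFD libraries, and Klrb1, Klrb1a, Klrg1 and Klra7 were above all other libraries.

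By subfamily the called share was 3 of 5 NKR-P1, 3 of 12 Ly49, 1 of 3 KLRE/KLRI, 1 of 2 KLRG, and 0 of 4 CD94/NKG2 and 0 of 1 NKG2D, to be read against 17.3% of all genes called lower and with Klrb1 among the NKR-P1 calls. Medians of the log2 difference were -1.07 for NKR-P1, -0.51 for Ly49 and -0.65 for CD94/NKG2. By role, 4 of 10 activating members (Klrb1 among them) and 3 of 12 inhibitory members were called, against the same 17.3%. The ratio of Klrb1c to Klrd1 TPM was 1.03 and 0.89 on WT-NCD and 0.54, 0.40 and 0.38 on WT-HFD. In Casp11-/- mice the ratio was 0.93, 0.86 and 0.40 on NCD and 0.60, 0.81 and 0.62 on HFD, so the diets did not separate there.

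The size of the diet difference depended on how the libraries were scaled. Summed over the family, TPM was 196 to 362 on NCD and 99.9 to 243 on HFD, where only WT-HFD replicate 3 reached the NCD range. Taken as a share of protein-coding TPM, it was 0.067% to 0.087% on NCD and 0.049% to 0.096% on HFD, and these ranges overlapped. When protein-coding genes were scaled to a common total, 2 of 22 members that passed stayed called, Klrb1c (-0.70 ± 0.19, adjusted p = 0.036) and Klrb1, again at the minimum in all HFD libraries, against 6.42% of 11176 genes called lower. Of these 22, 15 had a log2 fold change under 0, as did 57.1% of genes. The median member was at -0.18, that of all genes at -0.075. Under that scaling no member had all HFD libraries below all NCD ones (4.42% of genes did), against 4 of 27 (Klra9, Klrb1c, Klre1, Klrg1, with 5.60% of genes) on TPM. Rescaled values below a common minimum of 1.76 were raised to it, which can also narrow the differences of low members.

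**Figure D4:**
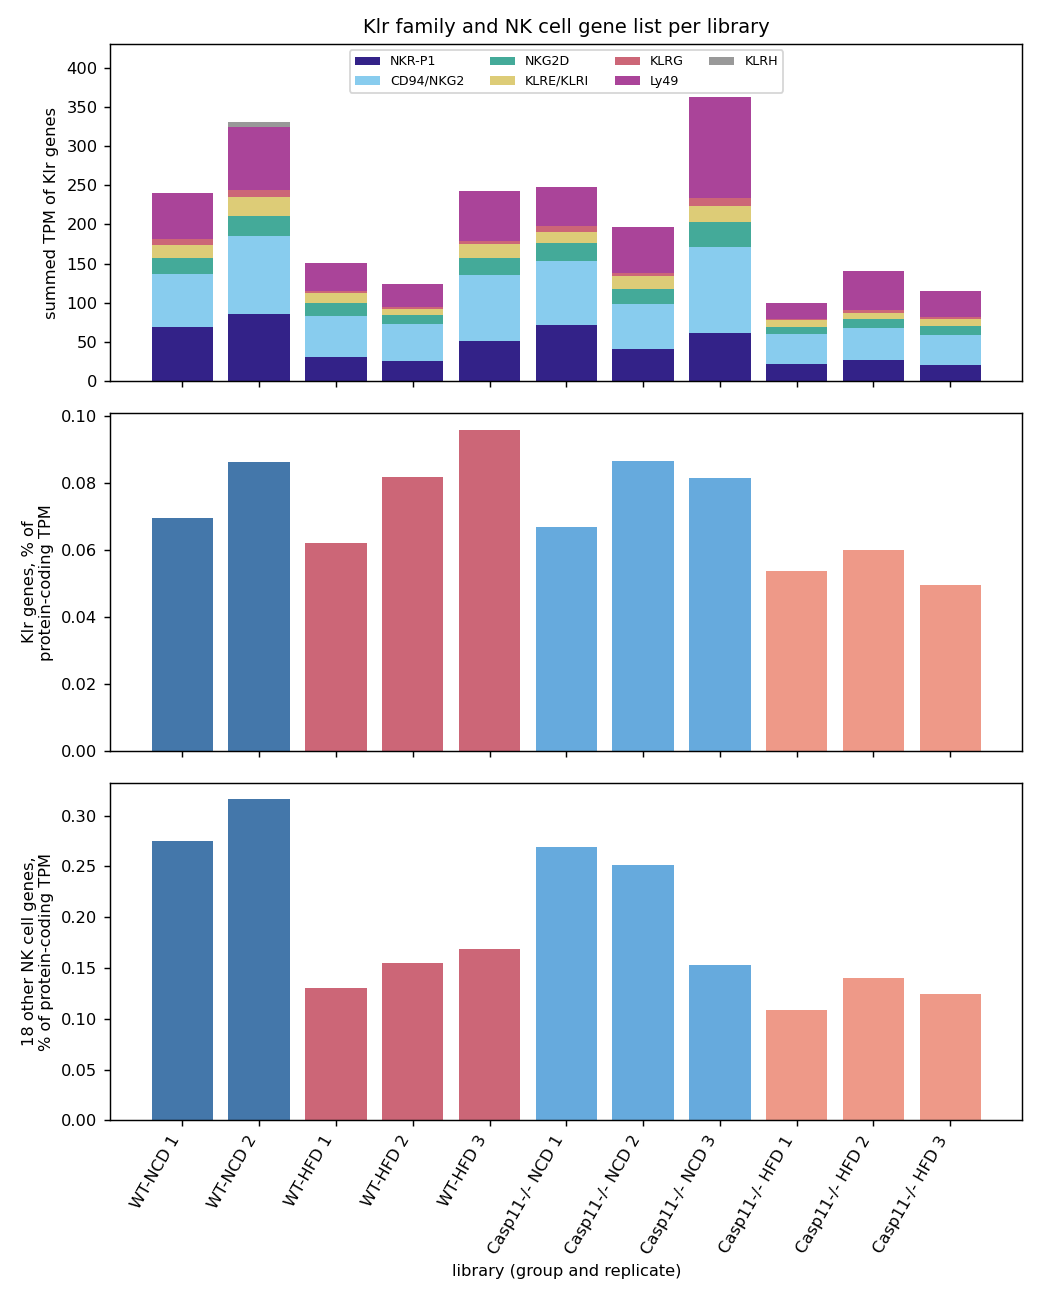
Family TPM by subfamily in the 11 libraries (top), the family as a percentage of protein-coding TPM (middle) and 18 NK cell genes outside the family likewise (bottom). The family's TPM is lowest in the 3 Casp11-/- HFD and 2 of the WT-HFD libraries, its share of protein-coding TPM overlaps between the diets, and the share of the other NK genes is higher in 4 of the 5 NCD libraries than in any HFD library.

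Within WT mice, 1 of 27 members was called, against 2.18% of genes. It was Klrb1, which passed through NCD libraries alone, and with at least 6 libraries required the count was 0 of 25, against 2.97% of genes called lower. In the 27, 10 members were at an unadjusted p under 0.05, as were 15.2% of genes. Of the 27, 22 had a log2 fold change under 0, as did 62.9% of genes. All HFD values were below all NCD values for 12 members, against 40.3% of genes with 3 libraries facing 2, and after rescaling for 9 of 22, against 20.6%. Klra17 and Klri1 had all HFD values above both NCD values, as did 14.3% of genes. Within Casp11-/- mice, 0 members were called against 1.10% of genes, 10 were at an unadjusted p under 0.05 against 27.0%, and without Casp11-/- NCD replicate 2 12 of 26 were called lower, as were 46.1% of genes. All 27 had a log2 fold change under 0, as did 69.6% of genes, and all HFD values were below all NCD values for 12, against 16.4% of genes, and after rescaling for 4 of 22, against 15.0%. Klrb1c gave -1.49 ± 0.50 in WT and -1.24 ± 0.45 in Casp11-/- mice, with adjusted p = 0.15 and 0.13. No interaction of diet and genotype passed (0 of 27, against 0.00557% of genes). The 3 members at an unadjusted p under 0.05 were Klra17 (-1.90), Klri1 (-1.39) and Klrb1, whose size rests on the minimum, none past the correction, against 2.60% of genes at that level.

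Between genotypes on NCD no member was called, against 0.0557% of genes. Klrb1 was the only member at an unadjusted p under 0.05, a level that 3.24% of genes reached. It passed the filter through NCD libraries alone and its size rests on the minimum, so it is only counted. Klra7, Klrb1, Klrb1a and Klrb1b had all Casp11-/- values below both WT values, as did 2.64% of genes. After rescaling, 2 of 22 members did so (Klrb1 and Klrb1b), and 2 had all Casp11-/- values above both WT values (Klrb1f and Klri1). The share of genes is not given here for these, so they are not a result about the members. On HFD again no member was called, and no gene at all (0% of 17950, 135 at an unadjusted p under 0.05). Klra17 and Klri1, which were at 5.31 to 10.6 and 2.75 to 5.90 TPM on WT-HFD and at 1.17 to 4.90 and 1.01 to 1.56 TPM on Casp11-/- HFD, had unadjusted p of 0.026 and 0.013, a level under 0.05 that 0.752% of genes reached. Together with Klrb1f and Klrd1 they had all Casp11-/- values below all WT values, as did 3.11% of genes. After rescaling, 6 of 22 did so (Klra17, Klrb1c, Klrd1, Klri1, Klri2 and Klrk1), against 7.54%. These differences did not pass the correction over 17950 genes.

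Other NK cell genes and signalling partners of the family also held members lower on HFD. Their counts are read against all genes. On TPM, 17.3% of genes were called lower and 192 of 17950 higher. After rescaling, 6.42% of genes were called lower and 737 of 11176 higher. Of 18 other NK cell genes, 10 were lower on HFD and none higher: Ccl5, Nkg7, Gzma, Il2rb, Gzmb, Prf1, Ncr1, Tbx21, Eomes and S1pr5. Prf1, the pore-forming perforin, gave -1.94 (adjusted p = 0.00080) and Gzma, a granzyme, -1.96 (adjusted p = 0.00084). After rescaling, 5 of 17 stayed lower (Ccl5, Gzma, Gzmb, Nkg7 and Prf1). Itga1, listed as a marker of tissue-resident NK cells and type 1 innate lymphoid cells, was higher (1.33, adjusted p = 0.0024). Sinusoidal endothelial markers were then also higher in 5 of 6 genes, and which cells carried Itga1 was not tested. The 18 genes made up 0.153% to 0.316% of protein-coding TPM on NCD and 0.109% to 0.168% on HFD, and of the NCD libraries only Casp11-/- NCD replicate 3 fell inside the HFD range. Of 17 adaptors and signalling genes, 9 were lower (Ptpn6, Syk, Inpp5d, Plcg2, Grb2, Lck, Vav1, Zap70 and Cd247), and 1, Plcg2, after rescaling. Tyrobp and Fcer1g, which carry DAP12 and the Fc receptor gamma chain, gave -0.57 and -0.21 and did not pass. Of 12 ligand genes none passed. H2-T23, which encodes Qa-1, gave -0.82 (adjusted p = 0.10), and Clec2d, the NKR-P1B ligand, -0.82 (adjusted p = 0.14). Among 11 neighbouring C-type lectin genes of the complex, Cd69 was lower (-1.25) and Clec1a and Clec1b were higher (1.16 and 1.43). After rescaling none of 9 was lower, and Clec1a, Clec1b, Clec7a and Clec9a were higher.

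Markers of other cells moved too, and their part in the result was not tested. The shares of all genes to read them against were 17.3% called lower and 192 of 17950 called higher on TPM. After rescaling they were 6.42% lower and 737 of 11176 higher. B cell markers were lower in 7 of 7 genes, summing to 511 to 1989 TPM on NCD and 151 to 359 on HFD. T cell markers were lower in 8 of 15, and in none of 12 after rescaling, summing to 196 to 885 TPM on NCD and 125 to 362 on HFD. Kupffer cell and macrophage markers were higher in 9 of 12, summing to 108 to 627 TPM on NCD and 413 to 1154 on HFD, with Marco at the minimum in all 5 NCD libraries. Sinusoidal endothelial markers were higher in 4 of 6, summing to 87.5 to 407 and 186 to 1014 TPM. Ly6d, which is also found on B cells, was lower among 7 plasmacytoid dendritic cell markers (149 to 616 and 121 to 287 TPM). After rescaling, 7 of 7 B cell markers stayed lower, 10 of 12 macrophage and 5 of 6 endothelial markers were higher, and of the 7 plasmacytoid markers Ly6d was lower and Bst2 and Tcf4 higher. None of 6 neutrophil markers (252 to 890 and 108 to 4224 TPM) and none of 8 hepatocyte markers (6212 to 23145 and 8615 to 17888 TPM) was called. The label calls the samples hepatic macrophages, and markers of each of these cell types were above the minimum.

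Reads of 75 bases cannot always be placed among such similar genes. In GENCODE transcripts, 25.0% of the 75-base stretches of Klrc1, 24.5% of Klrb1b, 23.5% of Klrc3 and 19.7% of Klra8 are also in another gene, and 9 of 30 members exceed 10%. For Klrb1b and Klrc1 these stretches lie mostly in Gm44511 and Klrc2. Gm44511 overlaps exons of Klrb1b by 599 bases and of Klrb1c by 413 bases on the same strand. How the authors assigned such reads is not given in the sources used here, so values of these members are uncertain in that share. No stretch was shared for 13 members, including Klrb1, Klrd1, Klre1, Klrg1 and Klrk1. Among the other members called lower on HFD, the share was 13.2% for Klrb1c, 12.1% for Klra9, 5.71% for Klra7, 3.34% for Klrb1a and 0.34% for Klra4. For Klrb1c it lay mostly in genes outside the family (11.4%), of which Gm44511 shared most.

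**Figure D5:**
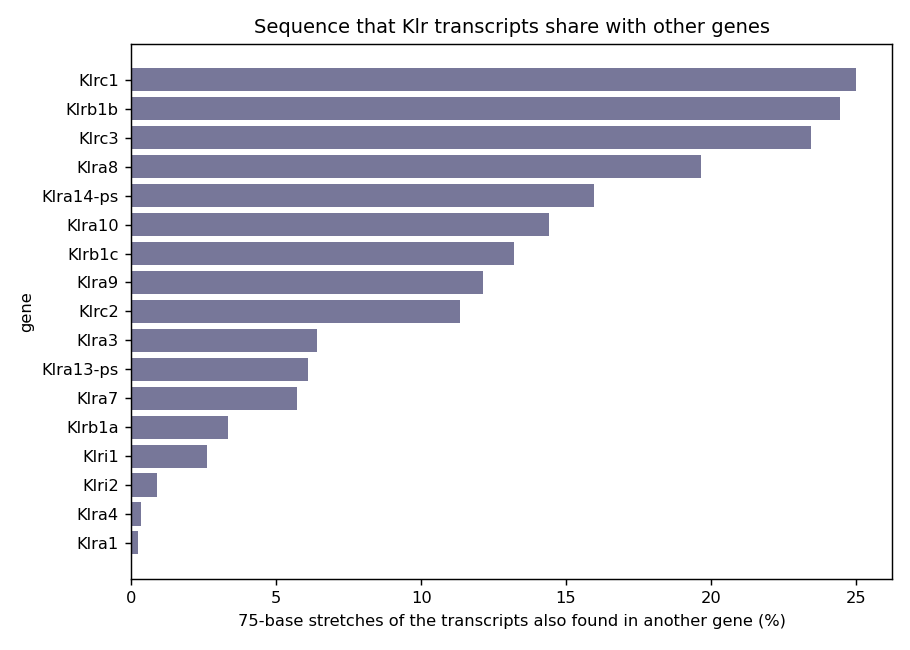
Percentage of 75-base stretches in the transcripts of each member that also occur in another gene, for the 17 members with any. Klrc1, Klrb1b and Klrc3 lie above 20%, and the members below Klra3 share little.

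The 5 protein-coding genes of at least 5 TPM whose log2(TPM + 1) was most like that of the summed family over the 11 libraries were Cdk6 (Pearson r = 0.958), Macroh2a1 (0.950), Runx1 (0.950), Alkbh1 (0.948) and Spop (0.947). All libraries share the diet difference in composition, and the median r over 7569 candidates was 0.788. After rescaling, the highest r was 0.793, again for Cdk6, and the median was 0.171.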

How the data were processed

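Each library is 1 mouse. Per the methods, stranded total RNA libraries were made by random priming with the SMARTer Pico Input kit from Percoll-separated cells and read as single ends of 75 bases. STAR, mm10 and GRCm38.p6 are named in the submitters' processing notes, and TPM was computed in Qlucore Omics Explorer. The deposited values, handled here as a score, are the authors' TPM for 40840 genes and hold nothing below 1.01, for a reason not given in the sources used here. The counting setting for strand and multi-mapping reads is not given in the sources used here. No counts were used, so the depth behind a value is unknown. Replicates are separate mice. The p-values rest on the spread between them, with each gene's variance drawn towards a trend over all genes tested. They are therefore not a measure of each gene's own spread alone. With the ordinary variance per gene, 1 member rather than 8 was called for the diet difference averaged over the genotypes.

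For the tests, values were taken as log2(TPM + 1) and fitted in limma 3.58.1 (R 4.3.3) with 4 group means and a variance trend, over the 17950 genes above the minimum in at least 3 of 11 libraries. P-values were two-sided and adjusted by Benjamini and Hochberg over all genes, with calls at an adjusted p under 0.05. WT-NCD replicate 3 was left out for its anti-correlation with the rest, and a fit of all 12 libraries was run as well. Rescaled values are TPM of protein-coding genes (21702 by RefSeq) brought to a common total. Lower values were then raised to a common minimum of 1.76, and the filter on low values was applied above it. Percentages and sums treat genes at the minimum as 0. The members, gene lists and tests were chosen with earlier results of these data known. All passing members were named, with every library's values for the 12 of highest mean and for called members. From the other lists, called genes and a few of the highest mean were named. Of these steps, only the limma fit of the diet difference averaged over the genotypes was tested on simulated data. Motifs and promoters came from RefSeq and shared stretches from GENCODE vM21, with Python 3.11.15, pandas 2.3.3, numpy 2.4.6, Biopython 1.88 and matplotlib 3.10.9. Alternatives were other scalings, pseudocounts, filters, spread estimates, a replicate block, an unadjusted threshold and leaving out each library. A gene of the NK cell list is not reported here and was left out of its counts and sums.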

Additional observations from a re-analysis of the deposited data

Results flagged for a closer look

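WT-NCD replicate 3, which entered only the fit of all 12 libraries, held 13 members above the highest value of the other 11 libraries. Among them Klra14-ps read 16.6 TPM against at most 1.48, Klra6 11.8 against 3.10 and Klra10 11.3 against 3.85. Klrb1-ps1, a pseudogene at the minimum in the other 11 libraries, read 24.2 TPM there. That library, which is outside the comparisons of 11 libraries, held 39677 genes above the minimum, against at most 18775 in the others. How many of all genes were highest there was not counted, so these values are not a result about the family.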

How the results depend on the processing

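The count of 8 members lower on HFD, averaged over the genotypes, was 0 with all 12 libraries (0.513% of genes called lower). It was 2 with protein-coding genes rescaled (6.42%). With the top 1% of genes removed and the rest rescaled it was 2 (1 of them, Klri1, higher). There 994 of 14631 genes were called lower and 826 higher. At an unadjusted p of at most 0.05 it was 15 (36.8% of genes). With the ordinary variance per gene it was 1, and the share of genes is not given here. With 1 library left out it ran from 1 to 14. Leaving out WT-NCD replicate 2 gave 1. The count was 2 without any of WT-HFD replicate 1, WT-HFD replicate 2 or Casp11-/- HFD replicate 1. It was 4 without Casp11-/- HFD replicate 2 and 5 without Casp11-/- HFD replicate 3. For these the share of all genes is not given here, so the counts are not a result about the members. Without Casp11-/- NCD replicate 2 it was 14, where 45.8% of genes were called lower. The count of 1 in WT mice was 0 with all 12 libraries, with rescaling and with the ordinary variance. It was also 0 with a filter of at least 1 or at least 6 libraries (Klrb1 is above the minimum in 4 libraries, so the last did not test it). With the top 1% removed it was 2 (218 of 14631 genes lower and 138 higher), and at the unadjusted threshold 10 (15.2% of genes). It was 0 without WT-HFD replicate 2 and 3 without Casp11-/- NCD replicate 2 (5.78% of genes). In Casp11-/- mice the count of 0 became 10 at the unadjusted threshold and ran from 0 to 12 (without Casp11-/- NCD replicate 2, 46.1% of genes). Between genotypes the count became 1 on NCD (3.24% of genes) and 2 on HFD (0.752% of genes) at that threshold. Without Casp11-/- NCD replicate 1 it was 1 on NCD, with the share of genes not given here, and it stayed at 0 on HFD. The interaction became 3. The cause of these shifts was not tested.

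Whether replicate numbers pair the libraries was not tested. Correlations of same-numbered deviations ran from -0.33 to 0.47 over 15 pairs, with 8 over 0.1, and 6 of 11 libraries were closest to their own number. With a replicate block the count was 14 averaged over the genotypes (35.6% of genes called lower) and 3 in WT mice (6.04%), and 0 in Casp11-/- mice (5.97%) and in the other comparisons.

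The log2 difference of 7 members that were not called turned above 0 in some alternatives. With rescaling it was 0.11 for Klra1, 0.46 for Klra2, 0.26 for Klrb1f, 0.026 for Klrc2, 0.32 for Klrc3 and 0.45 for Klri1. With the top 1% removed it was 0.51 for Klra2, 0.061 for Klra6, 0.30 for Klrb1f, 0.060 for Klrc2, 0.34 for Klrc3 and 0.46 for Klri1. With 1 library left out it ran from -0.69 to 0.33 for Klra2 (above 0 without WT-NCD replicate 2 or Casp11-/- NCD replicate 3) and from -0.19 to 0.14 for Klri1. Where WT-NCD was left with 1 library, that library was assumed to vary like the other groups. The depth of the libraries is unknown, and values near 1.01 TPM cannot show a decrease.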
